A study of Rattus norvegicus with 35 samples.

Results

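The genes described here are 41 genes of the G2 phase of the cell cycle and of mitosis, measured in the mammary gland of weanling rats. They were found on the array by the name printed for each probe, with the suffixes of predicted genes removed and older symbols accepted, for example Cdc2a for Cdk1. Of the 41 genes, 38 had a probe (51 probes of 41012), and Anln, Cdca3 and Nek2 had none. For 32 of these 38, a probe stood well above background on 4 or 5 arrays in some group, and these 32 were among 16157 genes tested. Aurkb, Cdc25c, Cdca8, Cenpe, Kif2c and Nusap1 did not reach that level.

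The study dosed pregnant Sprague-Dawley rats by gavage with bisphenol A (BPA), a plastics monomer with weak oestrogenic action, from gestational day 10 to 21, and took the left abdominal mammary gland of their female offspring, which came from different litters, on postnatal day 21. Each of 7 groups had 5 offspring and 1 one-colour Agilent array per offspring. The groups were a negative control, BPA at 25 or 250 µg/kg body weight per day (BPA25, BPA250), each of those doses with genistein, a soy isoflavone, in the dam's chow at 250 mg/kg (BPA25+genistein, BPA250+genistein), and each dose with indole-3-carbinol, a compound formed from cruciferous vegetables, in the chow at 2000 mg/kg (BPA25+indole, BPA250+indole). No group had genistein or indole-3-carbinol without BPA, so each diet was compared at a fixed BPA dose. All levels are log2 intensities relative to the 75th percentile of the same array, and a difference of 1 on this scale is a doubling. In whole-gland RNA, fewer dividing cells and less RNA per dividing cell cannot be told apart.

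Cells commit to mitosis when cyclin A2 and the B cyclins (Ccna2, Ccnb1, Ccnb2) bind the kinase Cdk1 and the Cdc25 phosphatases remove its inhibitory phosphates. The Polo and Aurora kinases then build the spindle. The checkpoint proteins Bub1, Bub1b, Mad2l1 and Ttk delay the separation of sister chromatids until every chromosome is attached. The anaphase-promoting complex, through Cdc20 and Ube2c, then marks securin (Pttg1) and the cyclins for destruction. Most of these genes are transcribed only from late S phase on, under the B-Myb, FoxM1 and MuvB complexes, and so serve as a common readout of the share of dividing cells. In the prepubertal gland, cell division takes place in the terminal end buds and ducts and also in stroma, fat pad and any lymph node tissue in the sample.

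The array reads each gene through oligonucleotide probes. Those of Cdk1, the mitotic kinase, Ccnb1, its B-type cyclin, and Mki67, the Ki-67 proliferation antigen, are shown because these genes are standard markers of division and their values recur below. Coordinates are those of rat build rn3 in the array files, where the interval given for Ccnb1 is longer than its probe.
Cdk1 probe, chr20:20057555-20057614: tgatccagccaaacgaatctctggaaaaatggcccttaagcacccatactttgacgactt
Ccnb1 probe, chr2:31495178-31495417: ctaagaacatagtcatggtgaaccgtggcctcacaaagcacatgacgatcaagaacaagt
Mki67 probe, chr1:195464455-195464514: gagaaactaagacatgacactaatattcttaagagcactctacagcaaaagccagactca

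Genes of late G2 share promoter elements: CCAAT boxes, bound by NF-Y, and the cell cycle genes homology region (CHR), bound by MuvB. RefSeq promoter windows (assembly GRCr8, 250 bases before to 50 after an annotated start) were held for 35 of the 41 genes, 37 windows in all, and not for Aurkb, Ccna2, Foxm1, Racgap1, Tpx2 and Ube2c. The letters TTTGAA of the CHR, on either strand, stood in 67.6% of the 37 windows and in 18.3% of all 33469 windows. The letters CCAAT, on either strand, stood in 75.7% and 37.5%, and 2 or more CCAAT together with a TTTGAA in 45.9% and 2.12%. The bases upstream of the start are printed for 4 standard markers and for Pttg1 and Cdc25b, which differed most between the indole-3-carbinol comparisons below, in lower case, 5′ to 3′ along the gene, with each TTTGAA or CCAAT, or its reverse complement, in capitals.
Cdk1 upstream, chr20:19265043-19265292, plus strand: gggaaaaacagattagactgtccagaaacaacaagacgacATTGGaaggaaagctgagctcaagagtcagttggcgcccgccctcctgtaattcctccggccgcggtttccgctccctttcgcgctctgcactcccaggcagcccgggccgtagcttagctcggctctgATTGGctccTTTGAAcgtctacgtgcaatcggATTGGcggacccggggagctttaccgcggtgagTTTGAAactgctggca
Ccnb1 upstream, chr2:33655226-33655475, minus strand: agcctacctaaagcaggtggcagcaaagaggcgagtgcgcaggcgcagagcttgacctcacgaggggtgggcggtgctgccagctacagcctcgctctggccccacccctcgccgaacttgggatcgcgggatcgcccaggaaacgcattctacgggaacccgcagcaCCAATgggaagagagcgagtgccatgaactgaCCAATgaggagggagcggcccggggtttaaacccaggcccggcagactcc
Mki67 upstream, chr1:199952594-199952843, minus strand: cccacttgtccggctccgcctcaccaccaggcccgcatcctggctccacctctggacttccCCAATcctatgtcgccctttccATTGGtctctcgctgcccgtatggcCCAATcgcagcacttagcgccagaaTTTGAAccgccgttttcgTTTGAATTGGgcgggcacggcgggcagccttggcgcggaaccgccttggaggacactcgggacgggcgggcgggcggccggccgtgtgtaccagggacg
Top2a upstream, chr10:84473094-84473343, minus strand: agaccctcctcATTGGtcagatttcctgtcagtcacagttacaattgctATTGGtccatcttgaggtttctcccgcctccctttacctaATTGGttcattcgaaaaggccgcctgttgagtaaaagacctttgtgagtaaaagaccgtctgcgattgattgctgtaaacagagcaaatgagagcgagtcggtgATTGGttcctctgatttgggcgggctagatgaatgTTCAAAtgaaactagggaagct
Pttg1 upstream, chr10:28406327-28406576, minus strand: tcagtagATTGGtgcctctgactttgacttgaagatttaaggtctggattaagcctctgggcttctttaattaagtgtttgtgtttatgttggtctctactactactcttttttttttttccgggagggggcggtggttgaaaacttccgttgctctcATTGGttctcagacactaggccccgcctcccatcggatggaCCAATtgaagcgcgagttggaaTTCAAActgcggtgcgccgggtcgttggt
Cdc25b upstream, chr3:138859923-138860172, plus strand: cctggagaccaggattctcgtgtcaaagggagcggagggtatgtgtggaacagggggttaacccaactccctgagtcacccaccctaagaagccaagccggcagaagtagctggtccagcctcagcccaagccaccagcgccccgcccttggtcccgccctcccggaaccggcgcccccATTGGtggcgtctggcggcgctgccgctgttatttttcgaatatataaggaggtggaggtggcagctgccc
In Cdk1 the CCAAT boxes began at -210, -81 and -49 and the TTTGAA at -72 and -16, counted from the start as 0. Pttg1 held 3 CCAAT boxes and a TTTGAA at -29. Top2a, the topoisomerase that untangles sister chromatids, had 4 CCAAT boxes and a TTTGAA at -22, and Mki67 had 4 and 2, of which the TTTGAA at -99 and the CCAAT box at -94 share a base. Ccnb1 held 2 CCAAT boxes, at -82 and -50, and no TTTGAA. Cdc25b, the phosphatase that starts Cdk1 activation, held a single CCAAT box at -71 and no TTTGAA. These letters describe the windows, and binding was not measured.

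The signal varied between the 10 slides that carried the arrays. The share of all probes well above background was 93.5 to 96.5% on slide 3, which held 1 array each of control, BPA25, BPA250 and BPA25+genistein, 65.6 to 72.6% on slides 4 and 5, and 32.5 to 50.6% on the others. The 75th percentile of the signal ran from 30.4 to 876 across the 35 arrays. Of the 51 probes of the mitotic genes, a mean of 40.6 was well above background in the control arrays, 42.6 in BPA25, 39.8 in BPA250, 39.0 in BPA25+genistein, 32.8 in BPA250+genistein, 36.2 in BPA25+indole and 41.2 in BPA250+indole. Of the 32 genes kept, 23 were above background on at least 4 of 5 arrays in every group. The other 9 passed through some groups only, so counts over the 32 genes describe them and are no test. Plk4, which starts centriole duplication, was above background on 20 arrays and Kif11, a spindle motor, on 18, and neither on any BPA250+genistein array. None of the 32 genes was saturated on an array.

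The mitotic genes were high or low together from animal to animal. On each array the median of the 32 centred levels was taken (each gene minus its mean over the 35 arrays). It was -0.12, -0.64, 0.60, 0.90 and 0.18 in the 5 control arrays, 0.43, -0.33, 0.60, -0.14 and 0.66 in BPA25, and -0.87, -0.69, 0.37, 0.94 and 0.13 in BPA250. Within each of these 3 groups the arrays thus spread widely, and the groups overlapped. It was -0.01, -1.08, 0.10, 0.62 and 0.23 in BPA25+genistein and -0.32, -0.58, -0.08, -0.10 and -0.49 in BPA250+genistein, where all 5 arrays were below 0. In BPA25+indole it was 0.12, -0.27, -0.93, -0.91 and -0.34, and in BPA250+indole 0.30, 0.53, -0.01, 0.92 and 0.54. Only 1 array of BPA25+indole lay above the lowest array of BPA250+indole. The number of the 32 genes above their own median ran from 0, on a BPA250+genistein array, to 31, on a BPA250+indole array.

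**Figure D1:**
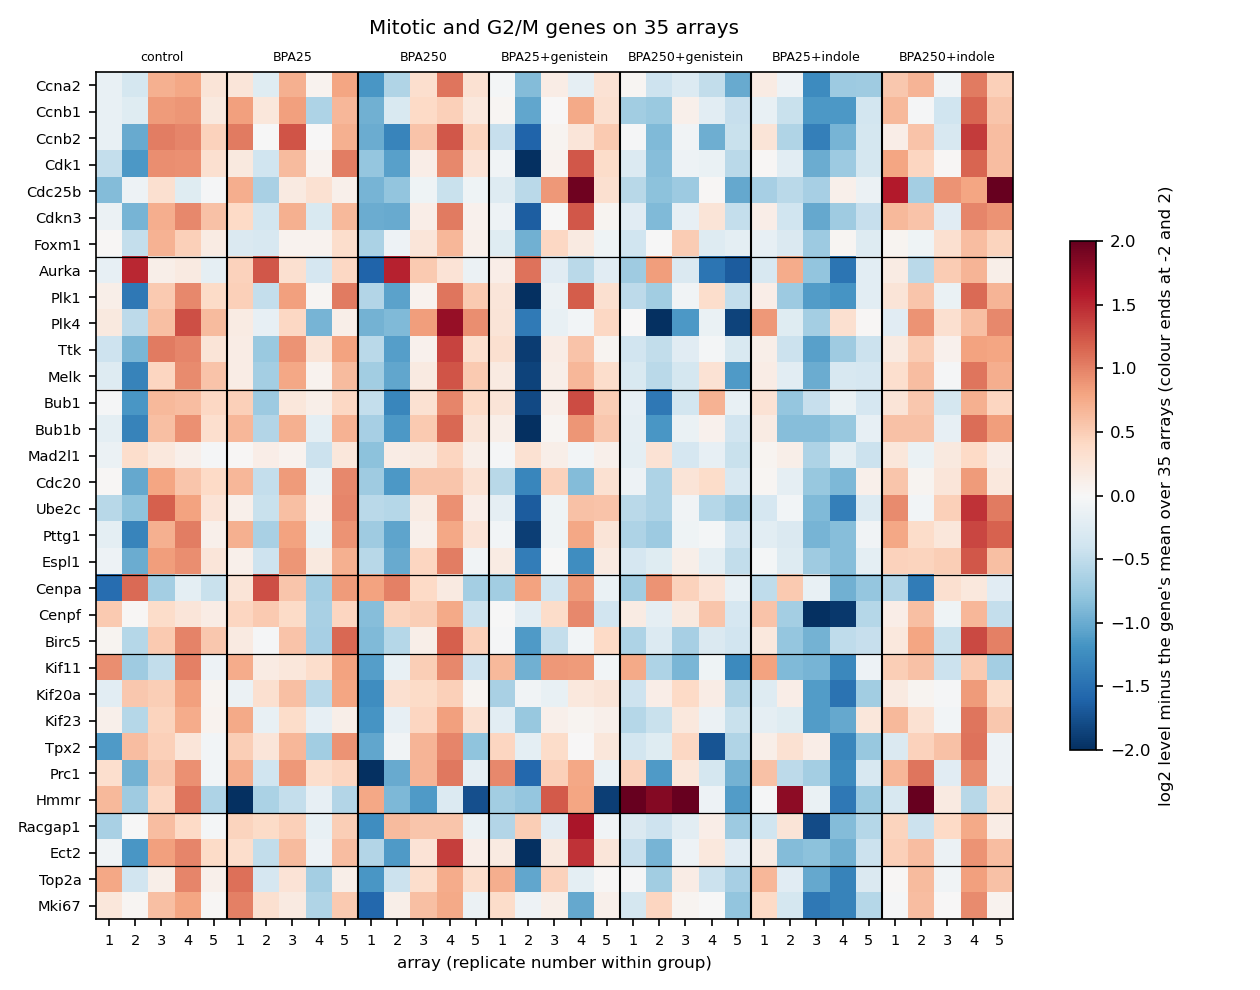
Colour shows the log2 level of each of 32 mitotic genes (rows, grouped by role between the lines) on each of 35 arrays (columns, 5 per group) minus the gene's mean over the arrays, with the colour ends at -2 and 2. Whole columns are red or blue, for example BPA250+indole replicate 4 against BPA25+indole replicates 3 and 4, while Hmmr and Cenpa run apart from the rest.

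**Figure D2:**
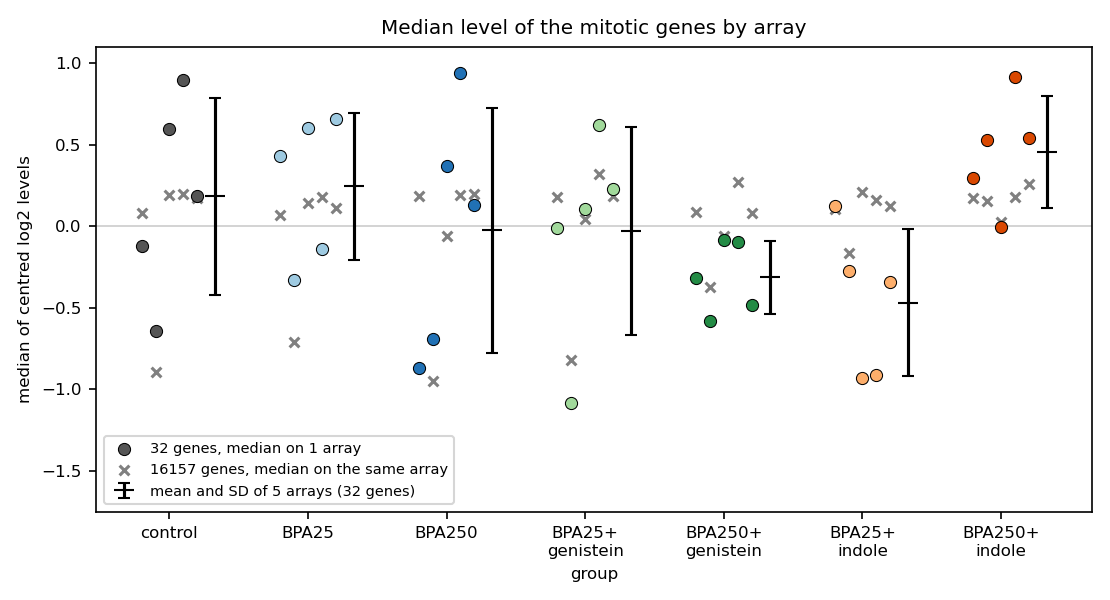
Each dot is the median centred log2 level of the 32 genes on 1 array, each cross the same median over 16157 genes, and each bar the mean and SD of 5 dots. The BPA250+indole arrays have a mean of 0.46 and the BPA25+indole arrays of -0.47, and the crosses on slide 3 (replicate 2 of the first 4 groups) lie between -0.95 and -0.71.

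As a description over 35 arrays, which share slides and signal strength, each gene was correlated with the median of the other mitotic genes. The median Pearson r was 0.801 over the 32 genes, and 27 were over 0.5, against 17.6% of 16125 other genes correlated with the same median. With each slide's mean removed (34 arrays on slides with more than 1), the median r was 0.869 and 29 of 32 were over 0.5, against 3.45% of the other genes, whose median r was 0.025. Without the 2 arrays farthest from the median these 2 median values were 0.763 and 0.837. The closest followers within slides were Bub1b (0.966), the checkpoint kinase, Pttg1 (0.962), securin, and Ccnb1 (0.962). Cdc25b followed less closely (0.421). Cenpa, the centromeric histone, stood at 0.127 and Hmmr, a microtubule-binding protein, at -0.134. Of the 30 other RefSeq-named genes with the highest r within slides (0.779 to 0.949), 17 were on a list of 60 further mitotic genes, headed by Spc24, a kinetochore subunit, and 4 on a list of DNA replication genes. Among those on neither list were the mitotic motor Kifc1 and the histone genes H2bc18 and H1f5.

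Bisphenol A alone left no mitotic gene past an adjusted p of 0.05 (limma with Benjamini-Hochberg adjustment over 16157 genes, as throughout), and 0% of all genes were called at either dose. At 25 µg/kg, 22 of the 32 genes were higher and 10 lower than in controls (52.1% of all genes were higher), with a median log2 difference of 0.08. None of the 32 reached an unadjusted p under 0.05. The median ran from -0.12, without control replicate 2, to 0.23 when single arrays were left out, so its direction rests on single arrays. On the 4 slides that held an array of each group it was 0.50, 0.43, -0.79 and 0.48. The smallest unadjusted p values belonged to Cenpa (0.80 ± 0.44, SE, n = 5 per group), Hmmr (-1.04 ± 0.73), Plk4 (-0.52 ± 0.47) and Kif11 (0.33 ± 0.45), each with an adjusted p of 1 by limma.

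At 250 µg/kg, 30 of the 32 genes were lower than in controls (58.3% of all genes were lower), with a median of -0.17 against -0.03 over all genes, and again none reached an unadjusted p under 0.05. When single arrays were left out the median ran from -0.42, without control replicate 2, to -0.0041, without BPA250 replicate 1. Mki67 was -0.21, -0.39, 0.17, 0.35 and -0.40 in controls and -2.0, -0.32, 0.17, 0.32 and -0.56 in BPA250. A single array, BPA250 replicate 1, was far below the rest, and the difference (-0.38 ± 0.38) was 0.00046 without it. The other 3 genes with the smallest unadjusted p were Hmmr (-0.82 ± 0.73), Cenpa (0.69 ± 0.44) and Kif20a (-0.34 ± 0.33), a motor of the cytokinetic midzone. Between the doses, 28 of 32 genes were lower at BPA250 than at BPA25 (55.9% of all genes, median -0.25), and 0% of all genes were called. On the 3 slides with both doses the median was -1.31, -0.35 and 0.99, and BPA250 against control was -0.70, -0.03 and 0.31 on its 3 shared slides, so the direction differed between slides. Medians of markers of other cell types differed as well, as a description. All 10 measured skeletal muscle markers were lower in BPA250 than in controls (median -2.86), and so were 4 of 4 T cell (-0.88), 4 of 4 erythroid (-0.47) and 8 of 10 luminal epithelial markers (-0.24). In BPA25, 7 of 10 luminal markers were lower (-0.45, with 47.9% of all genes lower) and 6 of 10 muscle markers higher (0.21, with 52.1% of all genes higher). Their part in the result was not tested.

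**Figure D3:**
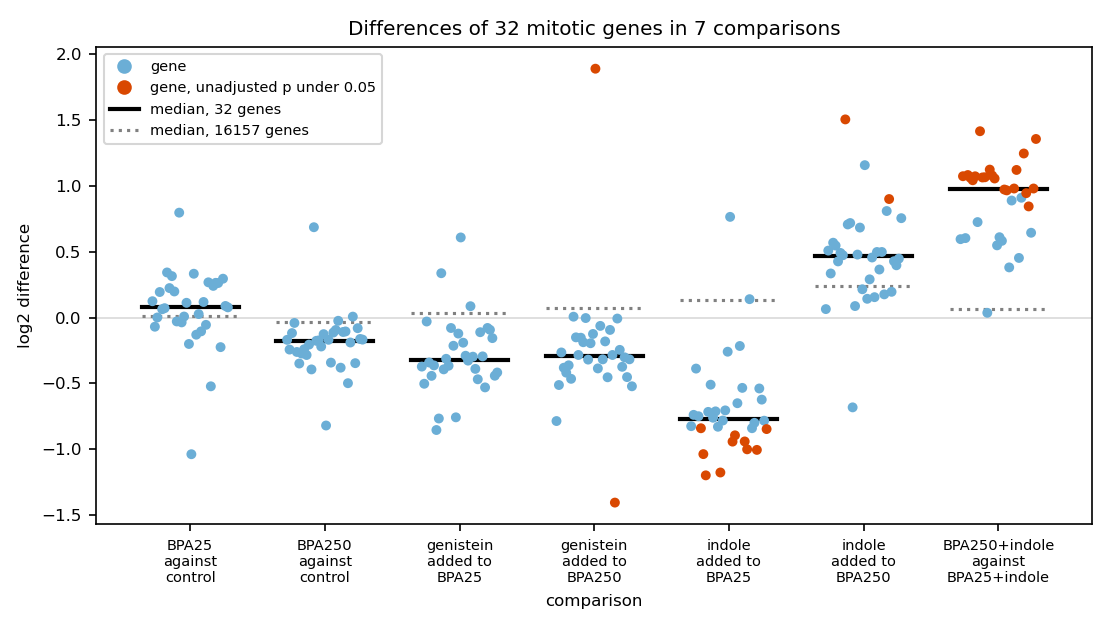
Each dot is the log2 difference of 1 of 32 genes in 1 of 7 comparisons, orange where its unadjusted p was under 0.05, with solid lines for the median of the 32 genes and dotted lines for that of 16157 genes. The medians lie at 0.08 and -0.17 for BPA alone, at -0.32 and -0.29 for genistein, at -0.77 and 0.46 for indole-3-carbinol and at 0.98 between the indole groups.

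With genistein most of the mitotic genes were lower at both BPA doses, with no gene past the threshold. The direction of the median at BPA25, and its size at both doses, rested on single arrays. At BPA25, 29 of 32 genes were lower than without genistein (46.3% of all genes), with a median of -0.32, no unadjusted p under 0.05, and 0.00619% of all genes called. This median moved to 0.0021 without BPA25+genistein replicate 2, a slide 3 array, and to -0.11 without slide 3, where that at BPA250 was -0.43, and it was -1.03 and 0.65 on the 2 slides that held both groups. At BPA250, 30 of 32 were lower (42.0% of all genes), with a median of -0.29, and 0% of all genes were called. It ran from -0.47, without BPA250 replicate 1, to -0.09, without BPA250 replicate 4, and on the 2 shared slides it was -0.32 and -0.66. Over both doses together 30 of 32 were lower (42.7% of all genes), by a median of -0.31 against 0.05 over all genes, and 0% of all genes were called. With single arrays left out this median ran from -0.43 to -0.17. The difference between the genistein effects at the 2 doses had 17 genes higher and 15 lower (55.4% of all genes were higher), with a median of 0.01 and 0% of all genes called. That median ran from -0.23, without BPA25+genistein replicate 2, to 0.24, without BPA250 replicate 4, and was -0.25 without slide 3, so its direction is not settled. Skeletal muscle markers were lower with genistein by a median of -4.66 at BPA25 and -0.94 at BPA250, and T cell markers differed by 0.05 and 1.5 (10 and 4 genes measured). Of the 10 luminal epithelial markers 5 were lower at BPA25 (median -0.01) and 8 at BPA250 (-0.56), and of the 6 basal and myoepithelial markers 3 (0.01) and 4 (-0.77). Luminal and basal markers were thus lower at BPA250, as the mitotic genes were, and differed little at BPA25, where the mitotic genes were lower too. Their part in the result was not tested. The comparisons of genistein and of indole-3-carbinol at one BPA dose share the 5 arrays with BPA alone.

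At BPA25 the genes with the smallest p were Espl1 (-0.76 ± 0.37), the separase that cuts cohesin, Cdc20 (-0.77 ± 0.38), the activator of the anaphase-promoting complex, Ccnb2 (-0.85 ± 0.46) and Birc5 (-0.50 ± 0.38), the passenger protein survivin. Their adjusted p was 1 by limma. Averaged over both doses, Ccnb2 differed by -0.66 ± 0.33 (adjusted p = 0.545) and Birc5 by -0.51 ± 0.27 (adjusted p = 0.579).

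At BPA250 the leading gene was Plk4. Its levels were -3.25, -3.17, -1.46, -0.56 and -1.37 in BPA250 and -2.28, -4.53, -3.45, -2.43 and -4.14 in BPA250+genistein. The groups overlapped. No BPA250+genistein array was above background and 4 of the BPA250 arrays were, so the measured difference of -1.40 ± 0.47 (adjusted p = 1) is replaced by a bound. Between the group means of these arrays, Plk4 was at least 1.32-fold higher in BPA250. For each BPA250+genistein array the higher of its own value and the lowest signal of any probe well above background was taken, with a mean of -2.36. The BPA250 arrays at -3.25 and -3.17 lay below that mean. The bound carries no error and is no tested minimum. With slide as a random block Plk4 passed the threshold at BPA250 (adjusted p = 0.0339, with 0.47% of all genes called) and over both doses (adjusted p = 0.0448, with 2.41% called), and with array weights, which lower the weight of arrays that vary more, at BPA250 (adjusted p = 0.0439, with 1.39% called). These calls use the values below background, so no size is given for them. Aurka, the centrosomal Aurora kinase, differed by -0.78 ± 0.48 and Birc5 by -0.51 ± 0.38, both with an adjusted p of 1. Aurka was above background on only 2 of the 5 BPA250+genistein arrays, so its size is uncertain.

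Hmmr ran against the others. Its brighter probe read -0.05, -1.71, -1.95, -1.10 and -2.57 in BPA250 and 2.23, 1.02, 1.69, -0.92 and -1.94 in BPA250+genistein. The first 3 arrays were thus high and the remainder lay within the range without genistein, a difference of 1.89 ± 0.73 (adjusted p = 1), and of 1.25 ± 0.51 over both doses (adjusted p = 0.459). The dimmer probe was above background on 9 of the 35 arrays and was not kept, and its difference of -0.07 ± 0.61 at BPA250 is no reading of the gene. The 2 probes lie at chr10:25748532-25748591 and chr10:25740442-25740501 in rn3. Other genes with more than 1 probe kept one sign across their kept probes with genistein over both doses, except Cenpf (-0.04 and 0.40), a kinetochore protein.

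Indole-3-carbinol with BPA25 went with the lowest group mean of the array medians (-0.47), while the lowest single array was in BPA25+genistein (-1.08). Of the 32 genes, 30 were lower than with BPA25 alone (34.3% of all genes), by a median of -0.77 while the median of all genes was 0.13 higher. No gene passed (0.0124% of all genes were called), 10 genes were lower at an unadjusted p under 0.05 (1.72% of all genes), and the exceptions in direction were Hmmr (0.76) and Plk4 (0.14). BPA25+indole had the lowest group mean for 24 of the 32 genes. When single arrays were left out the median stayed between -0.91 and -0.65, and on the 1 slide with both groups it was -1.60. With array weights 6 of the 32 genes passed, Racgap1 among them (-1.1, adjusted p = 0.0358), in a fit that called 819 genes, 5.07% of all.

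Ccnb1 read 0.28, -0.31, 0.28, -1.16 and 0.13 in BPA25 and -0.69, -0.99, -1.69, -1.69 and -0.91 in BPA25+indole. All 5 indole arrays were below 4 of the 5 BPA25 arrays, and BPA25 replicate 4 lay among them. The difference was -1.04 ± 0.36 (adjusted p = 0.939). Cenpf read -0.78, -0.68, -0.82, -1.86 and -0.77 in BPA25 and -0.62, -1.88, -3.37, -3.12 and -1.78 in BPA25+indole, with 1 array of each group at the other group's level (-1.18 ± 0.39, adjusted p = 0.918). This probe was above background on 3 of the 5 BPA25+indole arrays, and the other kept Cenpf probe differed by -0.55 ± 0.41. Kif20a (-0.89 ± 0.33, adjusted p = 0.964) and Racgap1 (-1.0 ± 0.38, adjusted p = 0.984), a component of the complex that positions the cleavage furrow, completed the 4 with the smallest p.

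Mki67 was 0.58, -0.12, -0.26, -1.04 and 0.09 in BPA25 and -0.03, -0.78, -1.87, -1.77 and -1.0 in BPA25+indole, a difference of -0.94 ± 0.38 with overlapping groups (adjusted p = 0.999). Cdk1 differed by -0.76 ± 0.45, Top2a by -0.54 ± 0.39 and Foxm1, the transcription factor of G2 genes, by -0.26 ± 0.27, each with an adjusted p of 0.999. By role, all 7 cyclins and entry genes, all 7 checkpoint and anaphase-promoting complex genes, all 3 centromere genes, both cytokinesis genes and both genes of chromosome structure were lower, with 4 of 5 kinases and 5 of 6 motors and microtubule binders. The medians of these 7 roles lay between -0.89 and -0.72.

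With BPA250, indole-3-carbinol went with higher levels. Of the 32 genes, 31 were higher than with BPA250 alone (69.8% of all genes), by a median of 0.46 against 0.24 over all genes. The median ran from 0.25, without BPA250 replicate 1, to 0.71, without BPA250 replicate 4. No gene passed (0% of all genes were called), and 2 were higher at an unadjusted p under 0.05 (2.99% of all genes). The all-gene shift depended on the scaling: with each array scaled on the probes above background on all 35 arrays, the median was 0.05 for the mitotic genes and -0.18 for all genes, and Mki67 and Foxm1 turned lower. Minus the median of all genes the difference was 0.23 with the 75th percentile scaling and 0.22 with the other. BPA250 held an array on slide 3, where the array medians of all genes ran from -0.95 to -0.71, and BPA250+indole held none. For all genes, the mean of the 5 array medians was -0.09 in BPA250 and 0.16 in BPA250+indole, while the middle one was 0.19 and 0.17. On the 1 slide with both groups the median of the 32 genes was 1.21.

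Cdc25b led. It read -1.84, -1.69, -1.0, -1.36 and -0.99 in BPA250 and 0.68, -1.60, -0.02, -0.11 and 1.69 in BPA250+indole. All indole arrays except replicate 2 were above every BPA250 array (1.5 ± 0.42, unadjusted p = 0.00121, adjusted p = 0.766). Pttg1 read 1.20, 0.86, 2.01, 2.69 and 2.19 in BPA250 and 2.68, 2.28, 2.14, 3.25 and 3.1 in BPA250+indole, overlapping at 2 BPA250 arrays (0.90 ± 0.43, adjusted p = 0.766). Ube2c (0.75 ± 0.40) and Espl1 (0.68 ± 0.37) followed, both with an adjusted p of 0.766. Mki67 (0.36 ± 0.38), Top2a (0.43 ± 0.39), Cdk1 (0.71 ± 0.45), Ccnb1 (0.43 ± 0.36) and Foxm1 (0.22 ± 0.27) were higher within their errors or little beyond them. Cenpa was the 1 gene lower (-0.68), and over both doses it had the smallest p of the 32 genes (-0.75 ± 0.31, adjusted p = 0.69). Averaging the opposite differences left a median of -0.10 over both doses, with 27 of 32 genes lower (28.5% of all genes) and 0% of all genes called, followed after Cenpa by Cenpf (-0.54 ± 0.27), Hmmr (0.96 ± 0.51) and Cdc25b (0.50 ± 0.30), each with an adjusted p of 0.69. The other kept Cenpf probe differed by -0.10 ± 0.29 over both doses.

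**Figure D4:**
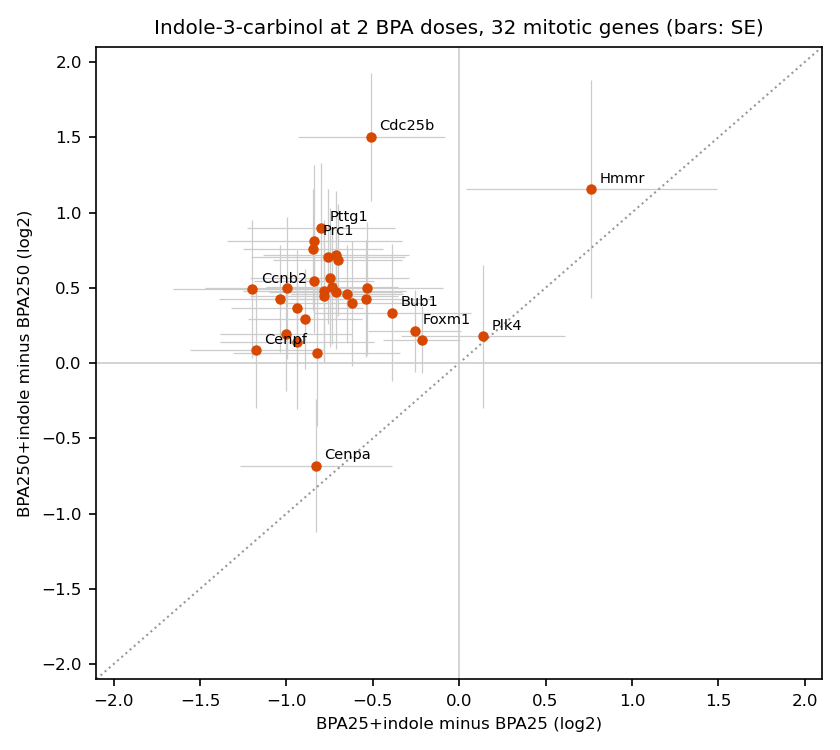
Each point is 1 of 32 genes, with its log2 difference for indole-3-carbinol added to BPA25 on the horizontal axis and added to BPA250 on the vertical axis, bars for SE, and a dotted line where both would be equal. All points lie above the line, and 29 lie in the quadrant that is lower at BPA25 and higher at BPA250.

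The difference between the 2 indole effects (that at BPA250 minus that at BPA25) was positive for all 32 genes (59.2% of all genes), with a median of 1.24 against 0.10 over all genes. None passed (adjusted p = 1 for each, and 0% of all genes called), while 19 of the 32 had an unadjusted p under 0.05 in this direction (1.68% of all genes). The median stayed between 1.02 and 1.47 when single arrays were left out. The sign was positive as well for all 38 genes with a probe, with no filter on dim probes (median 1.19, against 42.4% positive of the 35489 genes of that fit), and for all 23 genes above background in every group (median 1.26). The largest values were those of Cdc25b (2.01 ± 0.60), Pttg1 (1.70 ± 0.60), Ccnb2 (1.69) and Prc1 (1.65), a bundler of midzone microtubules. Ube2c stood at 1.60 ± 0.57, Ccnb1 at 1.46 ± 0.50, Cdk1 at 1.47 ± 0.63, Espl1 at 1.39 ± 0.53, Mki67 at 1.30 ± 0.54, Top2a at 0.97 ± 0.55 and Foxm1 at 0.47 ± 0.38. The smallest were those of Plk4 (0.04), Cenpa (0.15) and Mad2l1 (0.37), a checkpoint protein with little spread in any group.

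The 2 indole groups can also be compared directly, a comparison added after the data were seen. All 32 genes were higher in BPA250+indole than in BPA25+indole (59.1% of all genes), by a median of 0.98 against 0.06, and BPA250+indole had the highest group mean for 23 of the 32. None passed (0% of all genes were called), 20 had an unadjusted p under 0.05 (1.60% of all genes), and in 4 the groups did not overlap (1.14% of all genes). Ube2c read -0.30, -0.02, -0.85, -1.34 and -0.23 in BPA25+indole and 0.98, -0.02, 0.52, 1.49 and 1.08 in BPA250+indole (1.36 ± 0.40, adjusted p = 1). Cdk1 read 2.79, 2.55, 1.78, 2.03 and 2.41 against 3.56, 3.20, 2.80, 3.93 and 3.39 (1.06 ± 0.45, adjusted p = 1). Pttg1 read 1.70, 1.63, 0.98, 1.06 and 1.84 against 2.68, 2.28, 2.14, 3.25 and 3.1 (1.25 ± 0.43, adjusted p = 1), and Espl1 was 1.06 ± 0.37 higher.

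In Ube2c the highest array of the one group and the lowest of the other differed by less than the rounding. Both groups were hybridised on 4 shared slides, with 1 array each. On slide 8 the median of the 32 differences was 1.96 and 1 gene was lower in BPA250+indole, on slide 9 it was 1.48 with none lower, on slide 2 it was 0.31 with 7 lower, and on slide 4 it was 0.32 with 4 lower. The direction was the same on the 4 slides, and the size was larger on slides 8 and 9 than on the other two. With slide as a random block Ube2c (1.47), Pttg1 (1.33) and Espl1 (1.16) passed the threshold, each with an adjusted p of 0.0471, where 0.254% of all genes were called. With array weights 6 of the 32 genes did, Cdc25b (adjusted p = 0.0431) and Cdk1 (adjusted p = 0.0499) among them, where 0.668% of all genes were called. With array weights the difference of the indole effects also passed for Cdc25b (2.06, adjusted p = 0.0207), Pttg1 (adjusted p = 0.0298) and Ube2c (adjusted p = 0.039), where 2.74% of all genes were called.

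By role, the median log2 differences between the indole groups lay between 0.78, for motors and microtubule binders, and 1.07, for the centromere genes, and single genes between 0.04 (Cenpa) and 1.41 (Cdc25b). Among the other genes of entry, Cdk1, Ccna2, Ccnb1, Ccnb2 and the Cdk1 phosphatase Cdkn3 lay between 1.04 and 1.07, and 6 of all 7 entry genes had an unadjusted p under 0.05, all except Foxm1 (0.55). Of the kinases, Plk1, which drives centrosome maturation, stood at 1.12, Ttk, the kinase that starts checkpoint signalling, at 0.98, Melk at 0.89, Aurka at 0.60 and Plk4 at 0.45. Of the checkpoint and anaphase genes, Bub1b stood at 1.08, Cdc20 at 0.72, Bub1 at 0.60 and Mad2l1 at 0.38. Bub1b had another kept probe, dimmer and above background on 24 of the 35 arrays. With indole-3-carbinol it differed by -2.04 ± 0.50 at BPA25 and 0.53 ± 0.50 at BPA250. The probe used differed by -0.75 ± 0.47 and 0.57 ± 0.47, so the size for Bub1b depends on the probe.

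Birc5 and Cenpf stood at 1.07 and 1.12, while the third centromere gene, Cenpa, was at 0.04. The motors Kif20a and Kif23 of the midzone were at 0.97 each, Prc1 at 0.91, the spindle assembly factor Tpx2 at 0.64, Hmmr at 0.61 and Kif11 at 0.58. Ect2, which activates RhoA at the cleavage furrow, was at 1.08 and its partner Racgap1 at 0.94. All of these adjusted p values were 1 by limma.

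**Figure D5:**
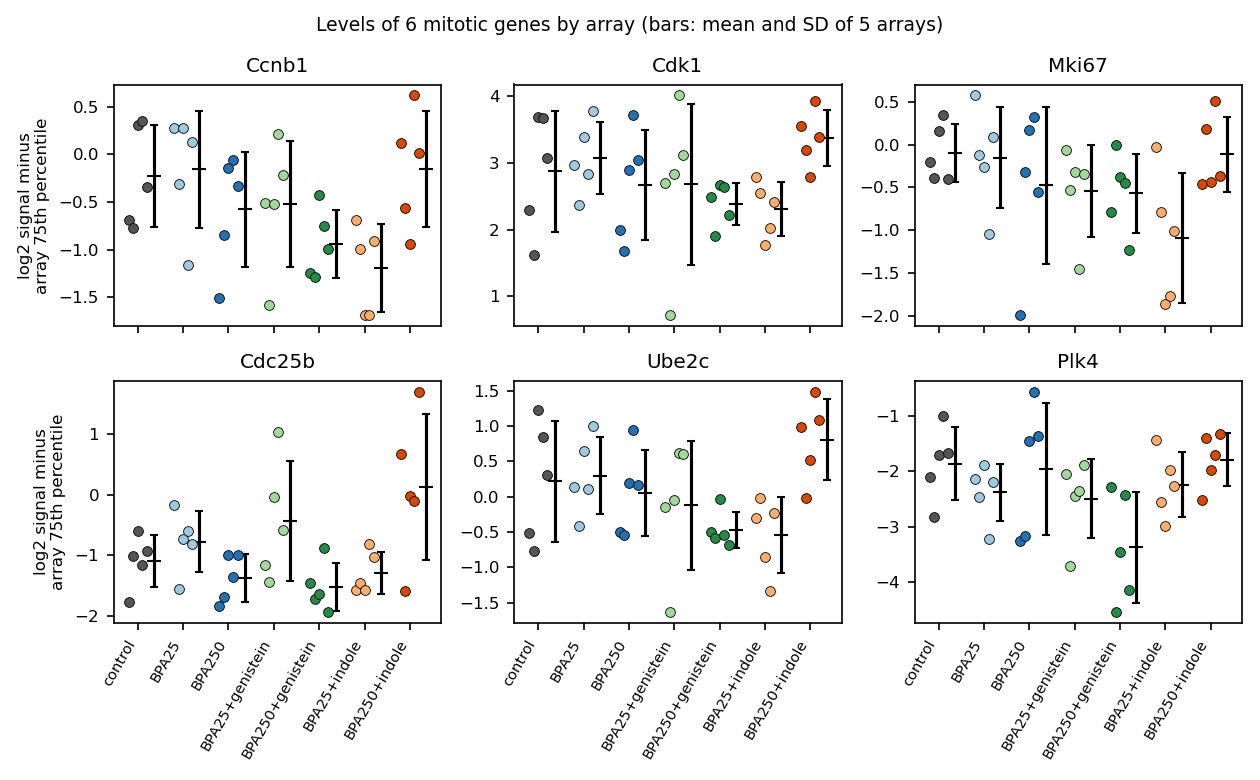
Dots are the log2 levels of 6 genes on single arrays by group, with the mean and SD of 5 arrays beside them, each panel on its own axis. Ccnb1, Cdk1, Mki67 and Ube2c have their lowest group mean in BPA25+indole, 4 of the 5 BPA250+indole arrays of Cdc25b lie above every BPA250 array, and the Plk4 values of BPA250+genistein are all below the limit of being well above background.

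Against the negative controls the genes were lower in BPA25+indole, while BPA250+indole lay close to the shift of all genes. In BPA25+indole all 32 genes were lower (29.4% of all genes), by a median of -0.62 and with 6 at an unadjusted p under 0.05 (1.21% of all genes), and 0% of all genes were called. In BPA250+indole 27 were higher (69.4% of all genes), by a median of 0.28 against 0.20 over all genes, and 0% were called. That median was 0.04 without control replicate 2, and with slide as a fixed block it was 0.09 against 0.10 over all genes. With the other scaling given above, the latter median turned to -0.08 and was 0.08 above the median of all genes. In BPA250+genistein 30 were lower (44.1% of all genes), by -0.48, and in BPA25+genistein 27 (44.5%), by -0.28, with 0% of all genes called in either. The 4 comparisons share the control arrays. Over all 7 groups at once 6 of the 32 genes had an unadjusted F test p under 0.05 (4.04% of all genes), none passed after adjustment, and 0% of all genes were called.

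Further genes of the cell cycle, from lists drawn up with earlier results of these data known, were read in the same fit. Of 60 other mitotic genes 34 were measured, and in the difference between the indole effects 33 of them were positive, with a median of 1.17 and 13 at an unadjusted p under 0.05 (59.2% and 1.68% of all genes, median 0.10). The smallest p, looked up after the values were seen, belonged to Pkmyt1 (1.31 ± 0.40), the kinase that restrains Cdk1, and Nuf2 (1.48 ± 0.47), a kinetochore protein. Of 49 DNA replication and S phase genes 34 were measured and 32 were positive, with a smaller median of 0.58. Tk1, thymidine kinase, was at 2.04 ± 0.64 and Rrm1, a subunit of ribonucleotide reductase, at 0.96 ± 0.35. Of 16 measured genes of G1 and cell cycle exit 12 were positive (median 0.29), and of 6 subunits of MuvB, B-Myb and NF-Y all 6 (median 0.36). None of these genes passed.

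With genistein over both doses the replication genes were all lower (34 of 34, median -0.26, against 42.7% of all genes and a median of 0.05), led by Chaf1b, a histone chaperone of replication (-1.18 ± 0.38, adjusted p = 0.38), and Mcm6 of the replicative helicase (-0.63 ± 0.27, adjusted p = 0.469). The mean array median of these replication genes was 0.14 in BPA25 and -0.07 in BPA25+genistein, and 0.04 in BPA250 and -0.32 in BPA250+genistein. In BPA25+genistein the lowest array lay at -0.93 and the middle one at 0.20, against a middle one of 0.30 in BPA25. Single arrays were not left out for this list. Of the other mitotic genes 29 of 34 were lower (median -0.24). Smc2, a condensin subunit, was 0.65 ± 0.25 higher (adjusted p = 0.432), and Nuf2 differed by -0.57 ± 0.23 (adjusted p = 0.459). The G1 and exit genes were even, with 8 lower and 8 higher, led by the antiproliferative Btg2 (0.55 ± 0.32) and Cdk6 (0.38 ± 0.22). Among the MuvB, B-Myb and NF-Y genes Nfyb (-0.22 ± 0.16) and Lin37 (0.26 ± 0.22) had the smallest p. With indole-3-carbinol, the mean over both doses was higher for 71.5% of all genes and lower for 28.5%. Of the genes with the smallest p of each list, Rb1 (0.41 ± 0.24), Cdkn1a (0.52 ± 0.33) and Nfyc (0.42 ± 0.31) were higher. Lower were Ung (-0.69 ± 0.28), a DNA repair glycosylase, Rrm2 (-0.98 ± 0.51) and Mybl2, B-Myb (-0.98 ± 0.52). Ncapg (-0.77 ± 0.54) and Nuf2 (-0.33 ± 0.23) were lower too. The adjusted p of each of these genes was 0.69 by limma.

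Medians of markers of the cell types in the sample also differed between the groups, as a description. With and without indole-3-carbinol at one BPA dose, the array medians of the markers given here overlapped. With indole-3-carbinol at BPA25, 9 of 10 measured luminal epithelial markers were lower (median -1.22) and at BPA250 10 of 10 (median -0.51). All 10 measured skeletal muscle markers were lower in both comparisons (medians -4.34 and -2.04), and 4 of 4 erythroid markers higher (0.42 and 1.86). Of all genes, 34.3% and 30.2% were lower and 65.7% and 69.8% higher. Muscle array medians ran from -3.69 to 4.04 in BPA25+indole and from 0.49 to 4.01 in BPA25. For the 6 basal and myoepithelial markers the mean array median was 0.49 in BPA25 and -0.12 in BPA25+indole. It was 0.14 in BPA250 and -0.42 in BPA250+indole. The 4 measured T cell markers were lower at BPA25 (median -0.45) and higher at BPA250 (0.77), the directions of the mitotic genes, and of 6 B cell markers 1 was measured. As medians of centred levels per array, the T cell markers ran from -2.22 to 0.44 in BPA25+indole and from -1.19 to 1.00 in BPA250+indole, and the luminal markers from -2.09 to 0.32 and from -1.02 to 0.41. In BPA25 the T cell markers ran from -2.75 to 2.18. Over 34 arrays with slide means removed, the median of the mitotic genes correlated with the luminal markers at r = 0.454, the basal markers at 0.28, the erythroid at 0.151, the T cell at 0.088 and the endothelial at -0.33, as a description. The white adipocyte markers stood at 0.12, the B cell marker at -0.05, muscle at -0.07, macrophage at -0.17 and fibroblast at -0.21. With slide means kept, white adipocyte (0.496), macrophage (0.43) and fibroblast markers (0.389) were above the luminal (0.365). Between the indole groups directly, BPA250+indole was higher by a median of 0.37 in the luminal, 0.71 in the T cell and 1.25 in the erythroid markers and lower in the muscle markers (-1.52). The part of these cell types in the differences of the mitotic genes was not tested.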

How the data were processed

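The scans of the 35 arrays were processed with Agilent Feature Extraction 9.5.3.1, per the submitters' processing notes. Per the file headers, the processed signal is an intensity with the background subtracted, and the mean and background signals are uncorrected intensities. Deposited flag columns (other: 0 or 1) mark spots well above background, saturated or outlying. The authors also deposited a table of log2 values whose normalization method is not given in the sources used here. The levels used are log2 of the processed signal minus the array's own 75th percentile of it, with outlier-flagged spots set to missing, and 1 probe (the brightest) stood for a gene. A probe was kept if 4 or 5 arrays of any group were well above background and no more than 5 values were missing. Group means were fitted with limma 3.58.1 in R 4.3.3 (Python 3.11.15 for tables and figures), with Benjamini-Hochberg adjustment over 16157 genes, and the script was tested on simulated data. Named genes are up to 4 with the smallest p in each of 8 comparisons, 5 standard markers, dim genes, genes whose probes disagree, and up to 2 per pathway list. The genes and lists were chosen with earlier results of these data known.

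Replicate numbers recur across groups. Same-numbered arrays deviated together (r over 0.1 in 5 of 5 pairs) for BPA25 against control and for genistein added to BPA250, and in 0 to 4 of 5 pairs elsewhere. All replicate 1 arrays shared a scan day, as did all replicate 5 arrays, and some same-numbered pairs shared a slide. Replicate 2 of BPA25 and of control, both on slide 3, had the highest r of their comparison (0.90). The reason for the shared deviations was not tested. Alternatives were other background, scaling, filter, probe, slide, scan day, replicate and weight settings and leaving out arrays. The number of arrays limits the precision.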

Additional observations from a re-analysis of the deposited data

Results flagged for a closer look

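Of 147 groups of 5 arrays tested (20 named genes and the median of the 32 genes, in 7 groups each), 8 had a single array whose gap to the nearest other array exceeded 0.71 of the group's range, where chance gives about 1 in 20. In the controls Aurka was -0.20 on replicate 2, a slide 3 array, with -1.54 nearest. In BPA25, Cenpf was -1.86 (nearest -0.82) and Racgap1 -0.72 (nearest -0.20) on replicate 4, and Hmmr was -3.33 (nearest -1.45) on replicate 1. Kif20a was -0.55 on BPA250 replicate 1 (nearest 0.74). In BPA250+indole, Espl1 was 1.19 on replicate 4 (nearest 0.54) and Hmmr 2.07 on replicate 2 (nearest -0.49). Ube2c was -0.03 on BPA250+genistein replicate 3 (nearest -0.50).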

How the results depend on the processing

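The median differences of the 32 mitotic genes moved by less than 0.522, the SD between replicates of the array medians, in all alternatives run. This yardstick is larger than most of the medians themselves, so it does not show that their size or direction held. Minus the median of all genes, the indole-3-carbinol median ran from -1.04 to -0.51 at BPA25, from 0.15 to 0.58 at BPA250, from 0.65 to 1.28 for the difference of the 2 and from 0.48 to 1.01 between the indole groups directly. With arrays scaled on the 10408 probes above background on all arrays, Mki67 (-0.0538) and Foxm1 (-0.20) turned lower with indole-3-carbinol at BPA250. When single arrays were left out, the Mki67 difference of BPA250 from control ran from -0.58 to 0.00046, and that with indole-3-carbinol at BPA250 from -0.0155 to 0.56, both turning without BPA250 replicate 1. The cause was not tested.

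Mitotic genes passed the adjusted threshold only with slide as a random block (1 with genistein at BPA250, 2 over both genistein doses, 3 between the indole groups) and with array weights (1 with genistein at BPA250, 6 with indole-3-carbinol at BPA25, 3 for the difference of the indole effects, 1 in BPA250+genistein against control, 6 between the indole groups). The weights ran from 0.0949 to 3.23, with the slide 3 arrays at 0.0949 to 0.155, and the slide correlation was 0.584. Both settings were limma fits with Benjamini-Hochberg adjustment.

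Over all genes, 1 was called with genistein at BPA25, 2 with indole-3-carbinol at BPA25 and 0 elsewhere. Genistein and indole-3-carbinol at BPA25 gave 0 and 0 with normexp background, the deposited table, no filter, a filter in every group, outlier spots kept and slide as a fixed block. Normexp gave 1 for genistein over both doses. The scaling on always detected probes gave 0 for genistein and 1 for indole-3-carbinol at BPA25, 5 for genistein over both doses, 1 for the difference of the genistein effects and 2 in the F test. Quantile normalization gave 1 for indole-3-carbinol at BPA25, 2 for genistein over both doses and 1 in the F test. The deposited table gave 1 for genistein at BPA250 and 1 over both doses. Slide as a fixed block gave 1 for the difference of the indole effects, 1 for BPA250+genistein against control and 4 in the F test. Slide as a random block gave 76 for genistein at BPA250, 390 over both doses, 2 for indole-3-carbinol at BPA250 and 2 over both doses, 8 for the difference of the indole effects, 1, 3 and 87 for BPA25+genistein, BPA250+genistein and BPA250+indole against control, 41 between the indole groups and 136 in the F test. Scan day gave 5 for indole-3-carbinol at BPA25, 3 for genistein over both doses, 1 for BPA25+genistein against control and 5 in the F test. Without slide 3 there were 4 between the BPA doses, 19 for genistein and 9 for indole-3-carbinol at BPA25, 67 for genistein over both doses, 1 for BPA250+genistein and 2 for BPA25+indole against control and 25 in the F test. Array weights gave 145 and 2 for the lower and higher BPA dose against control, 39 between them, 74 and 225 for genistein at each dose, 763 over both and 8 for their difference, 819 for indole-3-carbinol at BPA25, 8 over both doses and 443 for the difference, 63, 195, 67 and 164 for BPA25+genistein, BPA250+genistein, BPA25+indole and BPA250+indole against control, 108 between the indole groups and 967 in the F test.

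With the replicate block, 4 genes were called for indole-3-carbinol at BPA25, 2 for genistein over both doses, 1 for the difference of the genistein effects and 1 in the F test. The block changed the call of no mitotic gene. When single arrays were left out, the calls over all genes ran from 0 to 7 for genistein at BPA25, 0 to 22 for indole-3-carbinol at BPA25, 0 to 2 for genistein and 0 to 17 for indole-3-carbinol over both doses, 0 to 25 for BPA25+indole against control and 0 to 1 between the BPA doses, and no mitotic gene passed.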
